A study of Mus musculus with 24 samples.

Results

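This account follows 10 genes of lipid export and cholesterol handling, Apoe, Abca1, Abcg1, Nr1h3, Pltp, Mylip, Ch25h, Soat1, Scarb1 and Apoc2, in alveolar macrophages sorted from mouse lung. They were chosen by name, as genes regulated by or close to the liver X receptors (LXR), and all 10 were found by symbol among the 43430 gene IDs of the deposited count table. The table held 24 RNA-seq libraries from C57BL/6J mice, 4 in each of 6 groups. Young mice were 8 to 12 weeks old per the sample labels (2 months in the series text), and old mice were over 18 months (18 months in the series text). Naive mice of each age gave Siglec F-high cells, and mice of each age taken 28 days after asbestos gave Siglec F-high and Siglec F-low cells. No group carried a transgene or a deletion in the labels, and naive mice gave no Siglec F-low group. The series text describes the sorted cells as tissue-resident and as monocyte-derived alveolar macrophages, while the sample labels name them by Siglec F alone, and the label names are used here. Nothing in the labels says whether the 4 libraries of a group came from separate animals, so the p-values measure only the spread between these libraries.

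Macrophages take up lipoproteins, dying cells and, in the alveolus, surfactant, and cannot break down the sterol ring, so that excess cholesterol is either esterified for storage or exported. Oxysterols bind the liver X receptors, which pair with retinoid X receptors and switch on export genes such as Abca1, Abcg1 and Apoe. When membrane cholesterol is low, the transcription factor SREBP2 switches on cholesterol synthesis, and SREBP2 and LXR therefore report on opposite sterol states. Loss of Abcg1 or of surfactant clearance is known to fill alveolar macrophages with lipid.

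Promoter sequences are shown for Apoe, Abca1 and Mylip, because Apoe on the one hand and Abca1 and Mylip on the other went opposite ways between the Siglec F sorts of old mice. They are the 250 bases before the start site in RefSeq (GRCm38.p6, the assembly also called mm10), 5′ to 3′ on the strand of the gene, with capitals marking a match to a searched motif. The first is that of Apoe (chr7:19699189-19699438, minus strand), the second that of Abca1 (chr4:53159896-53160145, minus strand) and the third that of Mylip (chr13:45389492-45389741, plus strand).
Apoe: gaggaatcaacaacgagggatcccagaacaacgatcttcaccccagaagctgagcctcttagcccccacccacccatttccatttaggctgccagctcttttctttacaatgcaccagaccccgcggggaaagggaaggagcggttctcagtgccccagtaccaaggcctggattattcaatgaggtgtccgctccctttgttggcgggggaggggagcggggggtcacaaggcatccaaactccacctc
Abca1: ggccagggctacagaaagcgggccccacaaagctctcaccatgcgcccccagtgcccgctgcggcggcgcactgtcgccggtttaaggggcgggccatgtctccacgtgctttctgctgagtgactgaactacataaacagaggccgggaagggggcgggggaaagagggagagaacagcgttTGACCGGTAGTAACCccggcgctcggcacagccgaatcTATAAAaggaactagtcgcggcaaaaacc
Mylip: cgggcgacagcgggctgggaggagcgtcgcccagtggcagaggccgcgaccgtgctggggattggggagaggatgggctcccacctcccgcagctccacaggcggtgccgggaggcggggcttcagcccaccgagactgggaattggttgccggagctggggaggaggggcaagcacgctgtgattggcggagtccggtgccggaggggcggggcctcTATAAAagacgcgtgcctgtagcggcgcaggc
Windows from 250 bases before to 50 bases after a start were found for 8 of the 10 genes, in 11 windows, and none was used for Abcg1 and Scarb1. Both strands were searched for 3 motifs. The consensus for LXR and its partner, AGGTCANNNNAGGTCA, had a match in 5 of 32851 windows of the genome (0.0152%) and in none of the 11. A spelling described for the Abca1 promoter, TGACCGNNNNTAACC, matched 4 windows of the genome (0.0122%). In Abca1, from which the spelling comes, the match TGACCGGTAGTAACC lay 67 to 53 bases before the start (chr4:53159948-53159962). The TATA box letters TATAAA were in 4473 windows (13.6%), among them those of Abca1 (29 to 24 bases before the start) and Mylip (32 to 27 bases before it), those of Ch25h and Pltp, and the second of the 3 Apoe windows. The Apoe window printed above held none of the 3 motifs, which says only that these letters are not in it.

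The totals were 13423080 to 18124526 counts in 22 libraries, with 17069 to 18820 genes that had a count. The other 2 stood apart, and each was the third Siglec F-high replicate from asbestos mice of its age. The young one held 11889517 counts on 12528 genes, and the old one 3894699 counts on 15037 genes, with 35.6% of its counts on Gm42418 where no other library had more than 0.549%. The differences of the 10 genes are therefore given from edgeR fits with all 24 libraries and with the other 22. Of the 70 pairs of a gene and a comparison of 2 groups, 8 passed an adjusted p of 0.05 with 24 libraries, and the same 8 in the same direction and 15 more with 22. Values per gene are counts scaled to library size with TMM factors, in CPM, as mean ± SD of 4 libraries, and log2 fold changes are ± SE. Fewer cells of a type and less RNA per cell cannot be told apart in such bulk libraries. Siglecf, the sort marker, was at 420.0 ± 73.5 (young) and 442 ± 47.8 CPM (old) in the asbestos Siglec F-high groups and at 265 ± 27.4 and 173 ± 32.5 CPM in the Siglec F-low groups.

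Per length of exon the genes spanned a wide range of levels. Abcg1 was the most abundant in each group, at mean levels from 238 to 399 CPM per kilobase of exon (RPKM), and Apoc2 the least, at means of at most 1.97 RPKM. Apoe lay at 26.4 to 51.5 RPKM in the 4 Siglec F-high groups and at 148 to 151 RPKM in the Siglec F-low groups. Pltp had 49.5 to 94.8 RPKM, Ch25h 12.3 to 104 RPKM, and Abca1, Nr1h3, Mylip, Soat1 and Scarb1 stayed between 8.23 and 46.6 RPKM as group means.

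**Figure D1:**
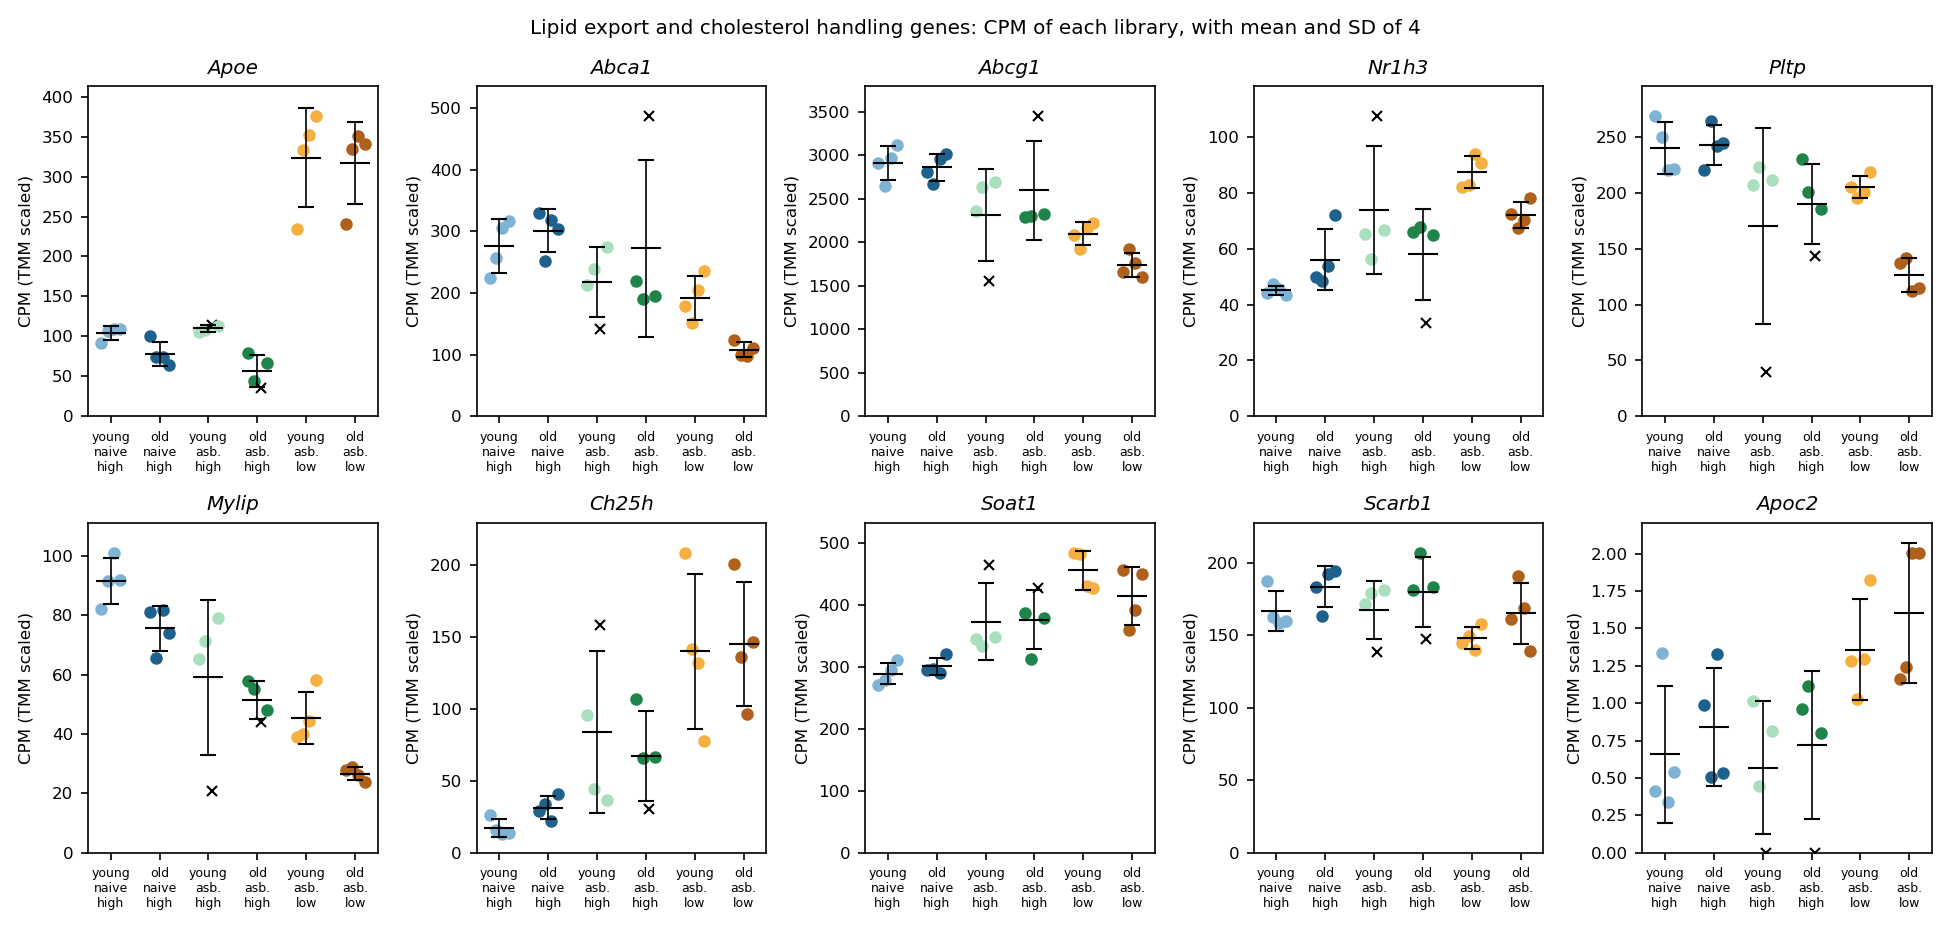
CPM of the 10 genes in each of the 24 libraries (dots, 4 per group, crosses for both libraries that stood apart), with the mean (line) and SD (bars) of 4. Naive and asbestos (asb.) and Siglec F-high and Siglec F-low groups are on the x axis. Apoe sits between 234 and 376 CPM in the 8 Siglec F-low libraries and at most at 115 CPM in all others, while Mylip is lowest in old Siglec F-low libraries apart from 1 cross.

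Between the sorts of old mice, Siglec F-low cells had more Apoe and less Abca1, Abcg1 and Mylip, 1 gene higher and 3 lower of 10 with 24 libraries (edgeR called 4.30% of all genes in this comparison), and with 22 libraries Pltp was lower as well (11.6% of all genes). Between the sorts of young mice, Apoe alone was called with 24 libraries, against 4.99% of all genes. With 22 libraries Apoe, Nr1h3, Ch25h and Soat1 were higher and Abcg1 and Mylip lower in Siglec F-low cells, 6 of 10 against 12.0% of all genes. The median log2 difference of the 10 genes was 0.01 in old and 0.25 in young mice with 24 libraries (all genes -0.00 and 0.00), and -0.05 and 0.17 with 22, so that the 10 did not move one way.

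After asbestos, Siglec F-high cells had more Nr1h3 and Ch25h than naive cells in young mice, 2 of 10 with 24 libraries (1.90% of all genes) and with 22 (5.06%). In old mice edgeR called none of the 10 with 24 libraries (0.780% of all genes). There 4 of the 10 had an unadjusted edgeR p under 0.05 (1151 of all 13467 tested genes), DESeq2 called 0 and limma voom 5. For DESeq2 and limma voom the share of all genes called is not given here. With 22 libraries Ch25h was higher and Abca1, Abcg1 and Mylip lower, 4 of 10 against 4.12% of all genes.

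By age, in naive Siglec F-high cells edgeR called none with 24 libraries (2.03% of all genes), and Nr1h3 alone, higher in old, with 22 (8.03%). With 24 libraries 2 of the 10 had an unadjusted edgeR p under 0.05 (1164 of all 13467 tested genes), DESeq2 called 0 and limma voom 4. For DESeq2 and limma voom the share of all genes called is not given, here or for Siglec F-low cells below. Their counts thus have no background to be set against. In asbestos Siglec F-high cells Apoe alone was lower in old mice, with 24 libraries (4.76% of all genes) and with 22 (7.32%). In Siglec F-low cells none was called by edgeR with 24 libraries (1.29% of all genes). There 3 of 10 had an unadjusted edgeR p under 0.05 (1097 of all 13467 tested genes), DESeq2 called 0 and limma voom 5. With 22 libraries Abca1, Abcg1, Pltp and Mylip were lower in old Siglec F-low cells, 4 of 10 against 7.21%. These comparisons share libraries, such as the old Siglec F-low group in the comparison by age and by sort, and are not independent of each other.

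**Figure D2:**
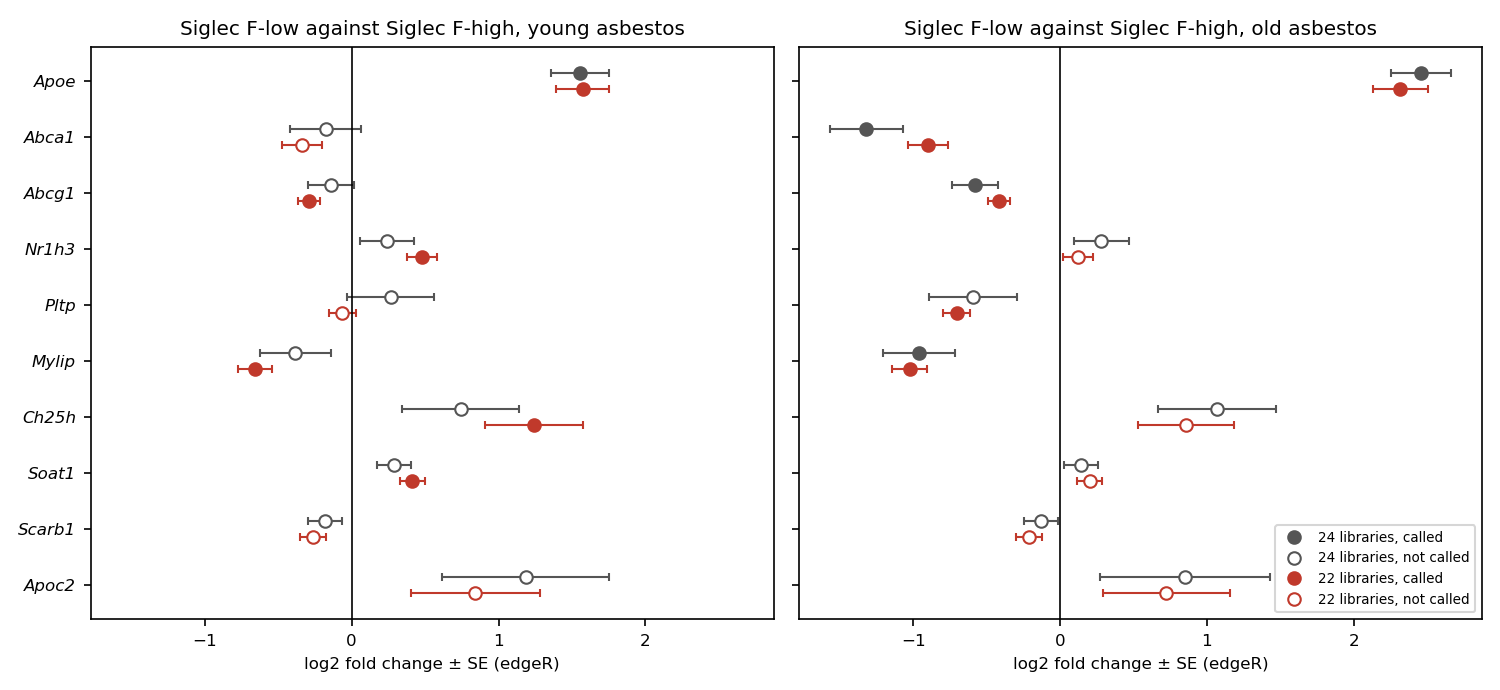
Log2 fold change ± SE of each gene, Siglec F-low against Siglec F-high, in young (left) and old (right) asbestos mice, from edgeR with 24 (grey) and 22 libraries (red). Filled points have an adjusted p under 0.05. Apoe is at 1.56 and 2.46 with 24 libraries, while Abca1, Abcg1 and Mylip lie below 0 in both ages.

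Apoe (ENSMUSG00000002985, chromosome 7, 19696109 to 19699188, minus strand) encodes apolipoprotein E, which carries exported cholesterol and phospholipid and is a ligand for lipoprotein uptake. Replicates 1 to 4 of young Siglec F-low cells had 234, 334, 352 and 376 CPM, and those of old Siglec F-low cells 240.3, 335, 351 and 341 CPM. Young asbestos Siglec F-high libraries had 106, 107, 115 and 113 CPM and old ones 79.3, 44.4, 35.9 and 66.2 CPM. All 8 Siglec F-low libraries were above all 8 asbestos Siglec F-high libraries, and the 2 ages of Siglec F-low cells overlapped. Apoe was 2.94-fold higher in Siglec F-low cells of young mice (log2 1.56 ± 0.20, edgeR adjusted p 2.41e-05) and 5.49-fold higher in those of old mice (2.46 ± 0.20, edgeR adjusted p 9.95e-08). With 22 libraries the log2 differences were 1.57 ± 0.18 (edgeR adjusted p 2.58e-06) and 2.32 ± 0.19 (edgeR adjusted p 2.05e-08). Both calls held when any 1 of the 24 libraries was left out.

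Naive young libraries had 91.1, 106, 109.8 and 109 CPM of Apoe and naive old ones 99.9, 73.9, 73.7 and 63.7 CPM. The naive ages overlapped through 1 old library, whereas every old asbestos Siglec F-high library was below every young one. The age difference was -0.42 ± 0.19 in naive cells (edgeR adjusted p 0.517, and 0.129 with 22 libraries) and -0.94 ± 0.20 in asbestos Siglec F-high cells (edgeR adjusted p 0.00777). With 22 libraries the latter was -0.77 ± 0.19 (edgeR adjusted p 0.0140), and with the 2 groups fitted alone it was -0.98 and not called (edgeR adjusted p 0.353). Limma voom called the naive difference too, with 24 libraries (-0.49, adjusted p 0.0313) and with 22 (-0.49, adjusted p 0.0438). The interaction of age and asbestos was -0.51 ± 0.27 for Apoe and not called (edgeR adjusted p 0.587). With 22 libraries it was -0.35 ± 0.25 (edgeR adjusted p 0.998). In Siglec F-low cells the age difference was -0.03 ± 0.19 (edgeR adjusted p 0.9998), and -0.03 ± 0.16 with 22 libraries (edgeR adjusted p 0.956). By mean, the order of the groups was young Siglec F-low (324 ± 62.4 CPM), old Siglec F-low (317 ± 51.3 CPM), young asbestos Siglec F-high (110.2 ± 4.30 CPM), young naive (104 ± 8.86 CPM), old naive (77.8 ± 15.5 CPM) and old asbestos Siglec F-high (56.5 ± 19.8 CPM). Neighbours in this order other than the second and the third overlapped in their libraries.

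Markers of several cell types moved with the sort, among them the macrophage types that the series text names. The summed level of 10 monocyte-derived macrophage markers was 1235 to 1602 CPM in young and 1944 to 2713 CPM in old Siglec F-low libraries, against 465 to 812 and 554 to 1137 CPM in the asbestos Siglec F-high libraries of the same ages. Mmp12, picked after its values were seen, made up 587 of the mean sum of 1400 CPM in young and 1308 of 2315 CPM in old Siglec F-low libraries. In the asbestos Siglec F-high groups Mmp12 was at 52.8 (young) and 227 CPM (old). None of the 10 had a lower mean in Siglec F-low cells at either age. Interstitial macrophage markers (7 genes) were at 13.5 to 33.6 and 23.1 to 27.2 CPM against 6.11 to 20.6 and 11.2 to 16.3 CPM. The 11 resident alveolar macrophage markers summed to 36321 to 47913 and 52514 to 67006 CPM in the Siglec F-low libraries and to 23989 to 28636 and 16389 to 41047 CPM in the Siglec F-high ones. Most of that sum was Chil3 (36739 ± 5771 of 42425 ± 6128 CPM in young Siglec F-low cells), which was picked after its values were seen. Of the other markers on that list, Siglecf, Ear1, Ear2, Fabp1, Krt79 and Il18 had lower means in Siglec F-low cells at both ages. They too were picked after their values were seen. Itgax had higher means there, at 2165 against 1506 CPM in young and 2505 against 2139.5 CPM in old mice. By mean, Marco and Car4 were lower in young and higher in old Siglec F-low cells, and Pparg the reverse. The young means in Siglec F-low cells, 493 (Marco), 968 (Car4) and 213 CPM (Pparg), lay within the spread of the young asbestos Siglec F-high libraries. These ran from 343 to 1112, from 629 to 1843 and from 163 to 248 CPM. Ear1 was at 167 against 298 CPM in young and 159.9 against 334 CPM in old mice, and Fabp1 at 31.5 against 89.9 CPM and 31.3 against 63.6 CPM. Fibroblast markers (7 genes) summed to at most 11.8 CPM in any library, with Lum at 0 in the 5 groups other than old Siglec F-low. Of the neutrophil markers, Ly6g was at 0 in the same 5 groups, and that list summed to at most 97.0 CPM. Alveolar type II markers summed to 68.3 to 182 CPM over all libraries, endothelial to 68.7 to 323 CPM, B cell to 23.3 to 286 CPM, T cell to 157 to 391.6 CPM and dendritic cell to 20.5 to 47.6 CPM. Endothelial markers were at 239 to 272 and 191 to 323 CPM in young and old Siglec F-low libraries, against 68.7 to 185 and 149 to 270.3 CPM in the asbestos Siglec F-high ones. Vwf made up 252 of the mean sum of 258 CPM in young and 237 of 246 CPM in old Siglec F-low libraries, and each other endothelial marker had group means of at most 3.85 CPM. The same monocyte-derived list was at 504 to 633 CPM in young and 469 to 815 CPM in old naive libraries. The part of these cell types in the differences by sort, and in the age difference of Apoe in asbestos Siglec F-high cells, was not tested.

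Apoc2 (ENSMUSG00000002992, chromosome 7, 19671579 to 19677941, minus strand), the cofactor of lipoprotein lipase, lies in the same gene cluster as Apoe and was close to the limit of detection. Its counts ran from 0 to 33 per library, and both libraries that stood apart had 0. Siglec F-low libraries had 1.03 to 1.83 (young) and 1.16 to 2.01 CPM (old), above the highest, 1.018 and 1.11 CPM, of the asbestos Siglec F-high libraries of the same age. The difference was 1.19 ± 0.57 in young (edgeR adjusted p 0.239) and 0.85 ± 0.58 in old mice (edgeR adjusted p 0.550), and 0.84 ± 0.44 and 0.72 ± 0.43 with 22 libraries, none called by edgeR. Limma voom called the young difference with 24 libraries (1.19, adjusted p 0.0155) and with 22 (1.18, adjusted p 0.0227).

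Abca1 (ENSMUSG00000015243, chromosome 4, 53030787 to 53159895, minus strand) encodes the pump that loads cholesterol and phospholipid onto lipid-poor apolipoproteins such as ApoE. Old Siglec F-low libraries had 124, 100.2, 97.1 and 111 CPM and old asbestos Siglec F-high ones 219, 189.6, 488 and 195 CPM. Every Siglec F-low library was below every Siglec F-high one, and replicate 3 of the latter was far above its group. The difference was -1.32 ± 0.25 (edgeR adjusted p 0.00227), and -0.90 ± 0.14 with 22 libraries (edgeR adjusted p 8.92e-05), when that library was left out. In young mice the Siglec F-low libraries had 179, 151, 204 and 235 CPM and the Siglec F-high ones 213, 239, 141 and 275 CPM. These overlapped, with a difference of -0.18 ± 0.24 (edgeR adjusted p 0.716; -0.34 ± 0.14 and 0.117 with 22 libraries).

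Naive libraries had 224, 257, 306 and 318 CPM of Abca1 in young and 330.1, 252, 319 and 305 CPM in old mice. All 8 were above all 8 libraries of the old asbestos mice except the Siglec F-high replicate 3. Old asbestos Siglec F-high cells differed from old naive ones by -0.16 ± 0.24 (edgeR adjusted p 0.987). With 22 libraries the difference was -0.58 ± 0.14 (edgeR adjusted p 0.0178). Old Siglec F-low cells differed from young ones by -0.83 ± 0.24 (edgeR adjusted p 0.123), a value that became -0.83 ± 0.13 with 22 libraries (edgeR adjusted p 0.000232). Leaving out 1 of the libraries that stood apart was enough for that call, at edgeR adjusted p 0.0233 when the young one was out and 0.0119 when the old one was.

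Abcg1 (ENSMUSG00000024030, chromosome 17, 31057675 to 31117988, plus strand) exports cholesterol to mature HDL. It had 1661, 1923, 1758 and 1602 CPM in old Siglec F-low libraries and 2294, 2305, 3449.6 and 2329 CPM in old asbestos Siglec F-high libraries. The groups did not overlap, and without replicate 3 the Siglec F-high libraries lay within 2294 to 2329 CPM. The difference was -0.58 ± 0.16 (edgeR adjusted p 0.0348), and -0.42 ± 0.07 with 22 libraries (edgeR adjusted p 0.000512). With 24 libraries the call was lost when 1 was left out in 4 of 24 cases, with old mice giving all 4. The edgeR adjusted p was 0.102 without Siglec F-high replicate 3 (asbestos) and 0.109, 0.0898 and 0.142 without Siglec F-low replicates 1, 3 and 4. It was also lost without the filter on low counts (edgeR adjusted p 0.111), with these groups fitted alone (0.0935) and with a replicate block (0.0575). Young Siglec F-low libraries had 2084, 1918, 2159 and 2222 CPM and young asbestos Siglec F-high ones 2363, 2639, 1558 and 2697 CPM. The overlap came from replicate 3 of the latter, and the difference was -0.14 ± 0.16 (edgeR adjusted p 0.637) with it and -0.29 ± 0.07 (edgeR adjusted p 0.0104) with 22 libraries.

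In naive cells Abcg1 ranged from 2649 to 3119 CPM in young and from 2669 to 3012 CPM in old mice. With 22 libraries Abcg1 was lower in old asbestos Siglec F-high than in old naive cells (-0.31 ± 0.07, edgeR adjusted p 0.0214) and in old than in young Siglec F-low cells (-0.27 ± 0.07, edgeR adjusted p 0.0196). With 24 libraries neither was called, at -0.14 ± 0.16 (edgeR adjusted p 0.957) and -0.27 ± 0.16 (edgeR adjusted p 0.796).

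Mylip (ENSMUSG00000038175, chromosome 13, 45389742 to 45412022, plus strand) encodes IDOL, a ubiquitin ligase induced by LXR that limits lipoprotein uptake. Its libraries read 27.8, 28.8, 26.0 and 23.8 CPM in old Siglec F-low, 58.0, 55.4, 44.1 and 48.0 CPM in old asbestos Siglec F-high and 81.2, 65.6, 81.9 and 74.2 CPM in old naive cells. No library of one of these 3 groups overlapped with another. The sort difference in old mice was -0.96 ± 0.25 (edgeR adjusted p 0.0252), and -1.02 ± 0.12 with 22 libraries (edgeR adjusted p 3.84e-06). With 24 libraries that call was lost without replicate 1 or 2 of the Siglec F-high group (edgeR adjusted p 0.0765 and 0.0645) and without Siglec F-low replicates 1, 3 and 4 (0.0615, 0.0756 and 0.103). The asbestos difference in old Siglec F-high cells was -0.55 ± 0.24 (edgeR adjusted p 0.513), and -0.49 ± 0.12 with 22 libraries (edgeR adjusted p 0.0190).

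Young libraries had 39.0, 40.1, 44.3 and 58.1 CPM of Mylip in Siglec F-low, 65.2, 71.2, 20.9 and 79.1 CPM in asbestos Siglec F-high and 82.3, 91.7, 101 and 91.8 CPM in naive cells. Apart from replicate 3 of the asbestos Siglec F-high group, the same order naive, asbestos Siglec F-high, Siglec F-low held without overlap. The young sort difference was -0.38 ± 0.24 (edgeR adjusted p 0.371), and -0.66 ± 0.12 with 22 libraries (edgeR adjusted p 0.000445). Old Siglec F-low cells differed from young ones by -0.77 ± 0.24 (edgeR adjusted p 0.167), which became -0.77 ± 0.11 with 22 libraries (edgeR adjusted p 0.000130). In asbestos Siglec F-high cells the age difference was -0.19 ± 0.24 (edgeR adjusted p 0.640), and -0.40 ± 0.13 with 22 libraries (edgeR adjusted p 0.0509). It was called without young asbestos Siglec F-high replicate 3 alone (-0.46, edgeR adjusted p 0.0337).

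**Figure D3:**
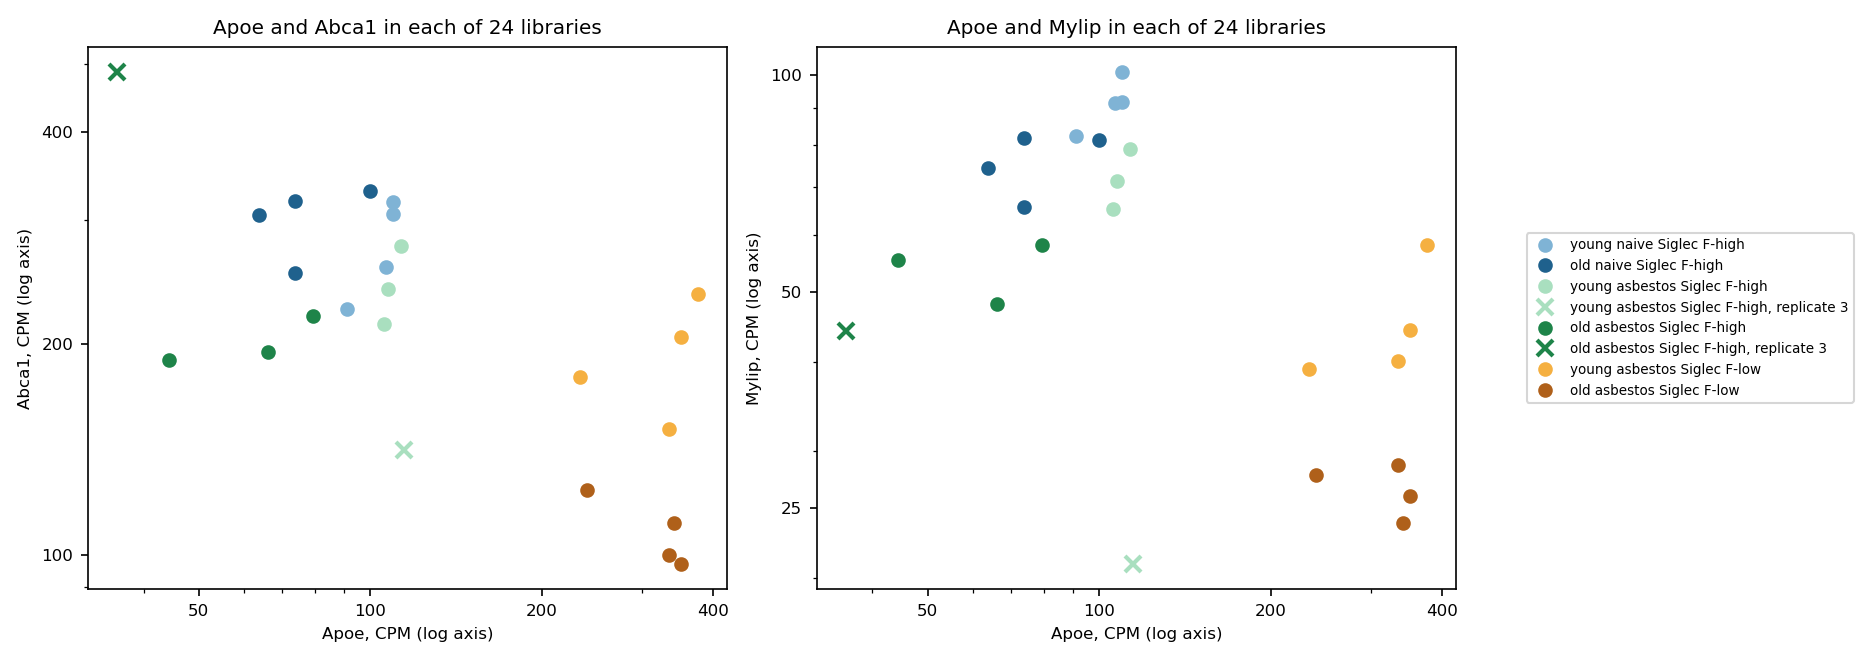
CPM of Apoe against CPM of Abca1 (left) and of Mylip (right) in each of the 24 libraries, both axes on a log scale, coloured by group, with crosses for both libraries that stood apart. The old Siglec F-low libraries lie at 240.3 to 351 CPM of Apoe and at the low end of Abca1 (97.1 to 124 CPM) and Mylip (23.8 to 28.8 CPM).

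Over 22 libraries, log2 CPM of Abca1 and Abcg1 had a Pearson r of 0.93, Abca1 and Mylip 0.95 and Abcg1 and Mylip 0.96, while Apoe had -0.65 with Abca1, -0.73 with Abcg1 and -0.69 with Mylip. The libraries share their groups, so r was also taken after each group's mean was removed. It was then 0.46, 0.74 and 0.54 among Abca1, Abcg1 and Mylip, and 0.27, 0.09 and 0.34 between Apoe and these 3. Over all 24 libraries Apoe had -0.69 with both transporters and -0.52 with Mylip, and -0.29 (Abca1), -0.31 (Abcg1) and 0.14 (Mylip) once group means were removed. The within-group values for the transporters thus changed sign when both libraries that stood apart were left out.

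Pltp (ENSMUSG00000017754, chromosome 2, 164839518 to 164857711, minus strand) encodes phospholipid transfer protein, which remodels HDL. Old Siglec F-low libraries had 137, 142, 113 and 115 CPM, old asbestos Siglec F-high ones 230.2, 201, 144 and 186 CPM, and young Siglec F-low ones 206, 195, 201 and 219 CPM. Old Siglec F-low cells were below both other groups with no overlap, with the closest pair at 142 and 144 CPM. The sort difference in old mice was -0.59 ± 0.30 (edgeR adjusted p 0.349), and -0.71 ± 0.09 with 22 libraries (edgeR adjusted p 1.38e-05). The age difference in Siglec F-low cells was -0.70 ± 0.30 (edgeR adjusted p 0.476), and -0.69 ± 0.09 with 22 libraries (edgeR adjusted p 1.86e-05). Both were called as soon as young asbestos Siglec F-high replicate 3, with 39.5 CPM where the rest of its group had 208 to 224 CPM, was left out (edgeR adjusted p 0.000764 and 0.000347). In young mice the sorts overlapped and the difference changed sign between the fits, at 0.27 ± 0.29 (edgeR adjusted p 0.645) with 24 and -0.06 ± 0.09 (0.726) with 22 libraries.

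Of the exonic bases of Pltp, 495 (19.3%) also belong to Ctsa on the other strand, and the strand setting of the counting was not given in the sources used here. Ctsa itself differed by 0.27 ± 0.17 between the old sorts (edgeR adjusted p 0.492, and 0.303 with 22 libraries at 0.13 ± 0.08). By age in Siglec F-low cells it differed by -0.00 ± 0.17 (edgeR adjusted p 0.9998). The part of reads shared with Ctsa in the Pltp differences was not tested.

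Scarb1 (ENSMUSG00000037936, chromosome 5, 125277087 to 125341094, minus strand) encodes the HDL receptor SR-BI, which moves cholesterol in both directions across the membrane. Its group means lay between 148 ± 7.56 and 184 ± 14.2 CPM, and edgeR made no call in any comparison with 24 or with 22 libraries. Its lowest mean was in young Siglec F-low cells (145, 149.7, 139.9 and 158 CPM), against 172, 179.6, 138 and 182 CPM in young asbestos Siglec F-high cells. Without replicate 3 of the latter these groups did not overlap, and the difference of -0.26 ± 0.09 narrowly missed the threshold with 22 libraries (edgeR adjusted p 0.0523; -0.18 ± 0.12 and 0.385 with 24). Limma voom called it with 24 libraries (-0.26, adjusted p 0.0169) and with 22 (-0.27, adjusted p 0.0144).

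Nr1h3 (ENSMUSG00000002108, chromosome 2, 91184061 to 91202834, minus strand) encodes LXR alpha, a receptor that activates Abca1, Abcg1 and Mylip. Young naive libraries were tightly grouped at 44.1, 47.2, 45.7 and 43.4 CPM, young asbestos Siglec F-high ones had 65.2, 56.3, 108 and 66.6 CPM and young Siglec F-low ones 82.1, 82.9, 93.7 and 90.5 CPM. Both asbestos groups were above all naive libraries, and the sorts overlapped only through replicate 3 of the Siglec F-high group. The asbestos difference in young Siglec F-high cells was 0.71 ± 0.19 (edgeR adjusted p 0.0474), and 0.47 ± 0.10 with 22 libraries (edgeR adjusted p 0.00717). With 24 libraries this call was marginal, being made in 4 of the 24 fits that left out 1 library (edgeR adjusted p 0.0138 to 0.163 over the 24). Those 4 left out old naive replicate 4, young asbestos Siglec F-high replicate 2 or 4, or the third old one of that sort. Between the young sorts the difference was 0.24 ± 0.18 (edgeR adjusted p 0.471), and 0.48 ± 0.10 with 22 libraries (edgeR adjusted p 0.00264).

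In old mice Nr1h3 had 49.7, 48.6, 53.9 and 71.9 CPM in naive, 65.8, 67.7, 33.5 and 64.8 CPM in asbestos Siglec F-high and 72.5, 67.4, 70.4 and 78.2 CPM in Siglec F-low cells. Every old naive library was above every young naive one, at 0.31 ± 0.18 (edgeR adjusted p 0.802), and 0.32 ± 0.10 with 22 libraries (edgeR adjusted p 0.0400). B cell markers (7 genes) were at 60.4 to 96.9 CPM in young and 141 to 286 CPM in old naive libraries, and their part in this result was not tested. Neither the asbestos difference in old Siglec F-high cells (0.08 ± 0.19, edgeR adjusted p 0.999; 0.24 ± 0.10 and 0.202 with 22 libraries) nor the old sort difference (0.28 ± 0.19, 0.533; 0.12 ± 0.10 and 0.547) was called. Every old Siglec F-low library was below every young one, at -0.28 ± 0.18 (edgeR adjusted p 0.9215), and -0.27 ± 0.09 with 22 libraries (edgeR adjusted p 0.0844). Limma voom called that age difference with 24 libraries (-0.31, adjusted p 0.0303) and with 22 (-0.30, adjusted p 0.0277). So did edgeR with a replicate block on 22 (-0.27, adjusted p 0.0480). Among the young groups Nr1h3 had its highest mean in Siglec F-low cells, where Abca1, Abcg1 and Mylip had their lowest. Over 22 libraries its log2 CPM had a Pearson r of -0.53, -0.70 and -0.68 with theirs, and of 0.26, 0.09 and 0.13 once group means were removed. With 24 libraries the values were -0.65, -0.79 and -0.61, and within groups -0.69, -0.78 and -0.38.

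Ch25h (ENSMUSG00000050370, chromosome 19, 34473778 to 34475164, minus strand) makes 25-hydroxycholesterol, which blocks SREBP processing and can bind LXR. Young naive libraries had 26.1, 15.5, 13.3 and 13.7 CPM, young asbestos Siglec F-high ones 95.6, 44.5, 158 and 36.8 CPM and young Siglec F-low ones 208, 141, 131 and 77.9 CPM. All asbestos libraries were above all naive ones, with a wide spread within each asbestos group. In young Siglec F-high cells the asbestos difference was 2.29 ± 0.42 (edgeR adjusted p 0.00386), and 1.78 ± 0.34 with 22 libraries (edgeR adjusted p 0.00280). It was not called when these 2 groups were fitted alone (2.28, edgeR adjusted p 0.230). Neutrophil markers (7 genes) were at 30.5 to 38.3 CPM in naive and 49.8 to 93.5 CPM in these asbestos libraries, with Ly6g at 0 in both groups and Camp at 0 in the latter, and their part in this result was not tested. The young sorts differed by 0.74 ± 0.40 (edgeR adjusted p 0.290), or 1.24 ± 0.33 with 22 libraries (edgeR adjusted p 0.0152), without young asbestos Siglec F-high replicate 3, the highest library of its group.

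Old libraries had 28.7, 33.7, 22.045 and 40.7 CPM of Ch25h in naive, 106, 65.5, 30.2 and 66.3 CPM in asbestos Siglec F-high and 201, 136, 96.4 and 147 CPM in Siglec F-low cells. Old naive cells differed from young ones by 0.87 ± 0.41 (edgeR adjusted p 0.541), or 0.87 ± 0.32 with 22 libraries (edgeR adjusted p 0.109). Limma voom called this with 24 libraries (1.02, adjusted p 0.0484). EdgeR did so with these groups alone (0.86, adjusted p 0.0477) and with a replicate block on 22 libraries (0.94, adjusted p 0.0084). The lowest asbestos library was replicate 3 of the Siglec F-high group, and it alone overlapped with the naive libraries. The asbestos difference was 1.14 ± 0.41 (edgeR adjusted p 0.304), and 1.35 ± 0.33 with 22 libraries (edgeR adjusted p 0.0201). The old sorts differed by 1.07 ± 0.40 (edgeR adjusted p 0.168), or 0.86 ± 0.33 with 22 libraries (edgeR adjusted p 0.0969). A fit of the 22 libraries with the replicate number as a block over all groups gave 0.97 and a call (edgeR adjusted p 0.00475). The labels do not say that replicate numbers pair animals. Ch25h shares 159 exonic bases (11.5%) with the lncRNA Gm26902 on the other strand, which had at most 194 counts in a library. In the young asbestos comparison Gm26902 was also higher, by 1.20 ± 0.29 (edgeR adjusted p 0.0325). It was higher in old than in young naive cells as well, by 1.14 ± 0.29 (edgeR adjusted p 0.0404). Reads of the pair cannot be told apart where the counting took no account of strand.

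Soat1 (ENSMUSG00000026600, chromosome 1, 156424525 to 156474331, minus strand) encodes ACAT1, which esterifies cholesterol for storage in droplets. It had 271, 279, 295 and 311 CPM in young naive, 345, 333, 465 and 348 CPM in young asbestos Siglec F-high and 484, 482, 431 and 427 CPM in young Siglec F-low cells. The libraries rose in that order without overlap, except for Siglec F-high replicate 3. The young sort difference was 0.29 ± 0.12 (edgeR adjusted p 0.158), and 0.41 ± 0.09 with 22 libraries (edgeR adjusted p 0.00234). Asbestos against naive was 0.37 ± 0.12 (edgeR adjusted p 0.112) and 0.24 ± 0.09 with 22 libraries (edgeR adjusted p 0.117), not called by edgeR although the groups did not overlap. DESeq2 called it with 24 libraries (0.38, adjusted p 0.0479). In old mice the means were 301 ± 13.5, 376 ± 48.0 and 415 ± 46.6 CPM in naive, asbestos Siglec F-high and Siglec F-low cells, with no call between them by edgeR. Limma voom called asbestos against naive in old Siglec F-high cells (0.27, adjusted p 0.0498).

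Whether the sort or the asbestos difference itself changed with age was asked with 2 interactions. None of the 10 was called in the interaction of age and asbestos, with 24 libraries (0% of all genes) or with 22 (0.0147% of all genes). An unadjusted edgeR p under 0.05 was seen for 1 of the 10 with 24 libraries (1050 of all 13467 tested genes) and for 0 with 22 (703 of 13629). DESeq2 and limma voom called 0 with 24 libraries. None was called by edgeR without a block in the interaction of age and sort either, with 24 libraries (0% of all genes) or with 22 (0.0147%). There 2 of the 10 had an unadjusted edgeR p under 0.05 with 24 libraries (650 of all 13467 tested genes) and 5 with 22 (870 of 13629). With 24 libraries DESeq2 called 0 and limma voom 1, and their shares of all genes called are not given here. The Apoe difference between the sorts was larger in old mice by 0.90 ± 0.27 (edgeR adjusted p 0.761), or 0.74 ± 0.25 with 22 libraries (edgeR adjusted p 0.552). Abca1 differed by -1.14 ± 0.35 (edgeR adjusted p 0.761), or -0.57 ± 0.19 with 22 libraries (edgeR adjusted p 0.577). Pltp was the 1 gene called by limma voom (-0.66, adjusted p 0.0468), and edgeR gave -0.86 ± 0.42 (adjusted p 0.761), and -0.64 ± 0.13 with 22 libraries (adjusted p 0.132). With the replicate number as a block over all groups of the 22 libraries, edgeR called Pltp (-0.65, adjusted p 0.0299). Limma voom on 22 libraries did as well (-0.68, adjusted p 0.0163).

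The rest of the pathway was followed through 48 genes in 6 lists, of which 42 were tested. Of cholesterol synthesis and other SREBP2 targets, 12 of 13 were tested. In Siglec F-low cells of old mice 6 of 12 were higher and none lower with 24 libraries (median 0.54, all genes -0.00, 4.30% of all genes called). With 22 libraries 12 of 12 were higher (median 0.57, all genes -0.01, 11.6% called). Sqle, the epoxidase at an early committed step, differed by 0.85 ± 0.13 (edgeR adjusted p 0.000301), Sc5d, a late desaturase, by 0.72 ± 0.16 (edgeR adjusted p 0.00771) and Fdps, which makes farnesyl pyrophosphate, by 0.93 ± 0.23 (edgeR adjusted p 0.0198). In young mice 2 of 12 were higher with 24 libraries (median 0.51, 4.99% of all genes called) and 10 of 12 with 22 (median 0.55, 12.0% called), none lower. They were Sc5d (0.98 ± 0.15, edgeR adjusted p 0.000324) and Sqle (0.78 ± 0.13, edgeR adjusted p 0.000570) with 24 libraries. With 22, Sqle was at 0.74 ± 0.13 in young and 0.82 ± 0.12 in old mice, Sc5d at 0.87 ± 0.14 and 0.70 ± 0.14, and Fdps at 0.97 ± 0.14 and 0.77 ± 0.14, all called by edgeR.

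**Figure D4:**
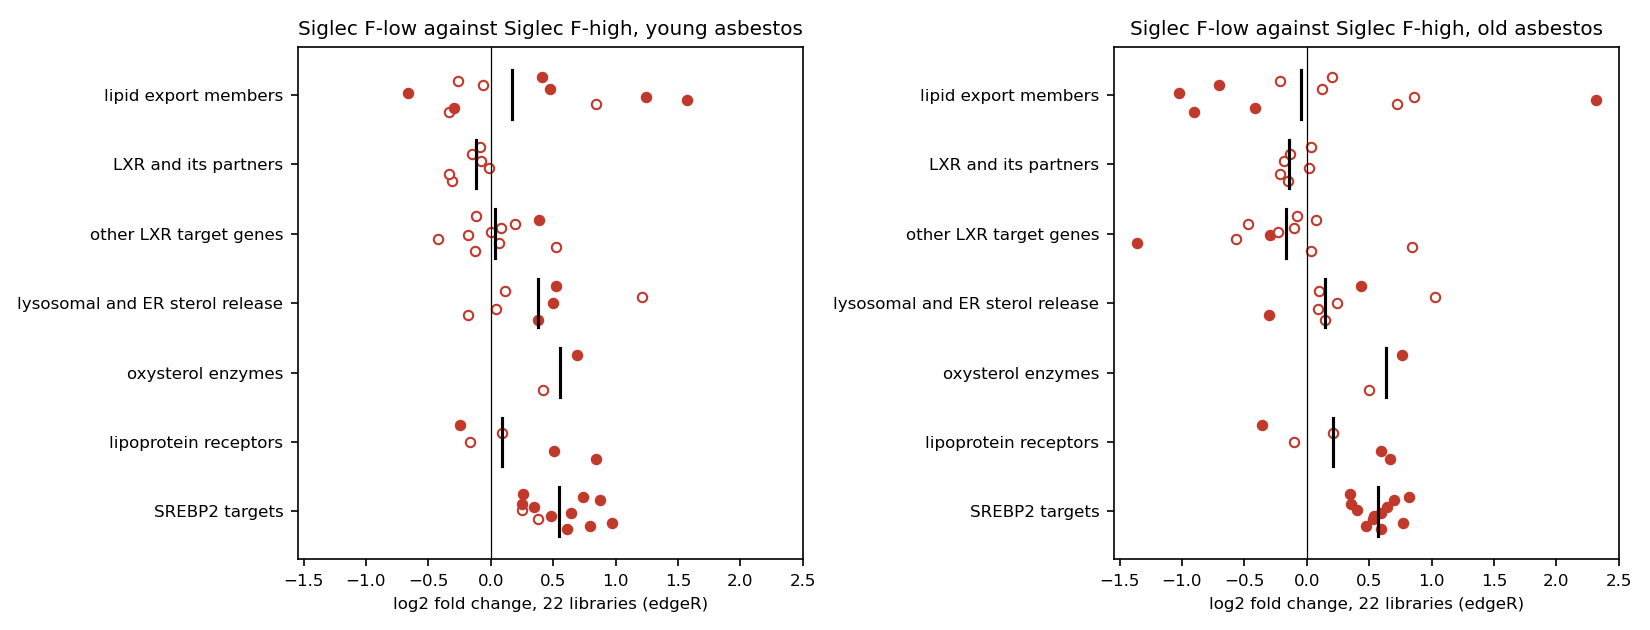
Log2 fold change between the Siglec F-low and Siglec F-high sorts of young (left) and old (right) asbestos mice, for each tested gene of the 10 described here (top) and of the 6 lists, from edgeR with 22 libraries. Filled points have an adjusted p under 0.05 and black bars are medians, with SREBP2 targets at 0.55 and 0.57 and LXR and its partners at -0.11 and -0.14.

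Some SREBP2 targets were also called by asbestos and by age. In old Siglec F-high cells 2 of 12 were higher after asbestos with 24 libraries and 6 with 22 (all genes 0.780% and 4.12%), led by Sqle (0.62 ± 0.13, edgeR adjusted p 0.0227) and Sc5d (0.72 ± 0.16, edgeR adjusted p 0.0265). In young Siglec F-high cells 0 and 1 were higher, against 1.90% and 5.06% of all genes (Lss with 22 libraries, 0.44 ± 0.10, edgeR adjusted p 0.0115). By age, 1 and 3 were higher in old asbestos Siglec F-high cells (Sc5d 0.69 ± 0.16, edgeR adjusted p 0.0139), against 4.76% and 7.32% of all genes. In old Siglec F-low cells 1 and 6 were higher (Sqle 0.51 ± 0.13, edgeR adjusted p 0.0473), against 1.29% and 7.21%. In old naive cells 0 and 1 were higher, against 2.03% and 8.03%. The single call in old naive cells is near the share of all genes. None of the 12 was called lower in any of the 7 comparisons of 2 groups, in either fit.

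Lipoprotein uptake was represented by 5 tested receptors. Between the sorts 1 of 5 was higher with 24 libraries at each age, against 4.99% (young) and 4.30% (old) of all genes called. With 22 libraries 2 were higher and 1 lower at each age, against 12.0% and 11.6%. Cd36, the scavenger receptor for oxidised LDL, was higher in Siglec F-low cells of young (1.083 ± 0.22, edgeR adjusted p 0.00432) and old mice (0.78 ± 0.22, edgeR adjusted p 0.0485), and by 0.84 ± 0.13 and 0.67 ± 0.13 with 22 libraries, both called. Sort1, a sorting receptor, was lower with 22 libraries in both ages, by -0.25 ± 0.08 (edgeR adjusted p 0.0407) and -0.36 ± 0.08 (0.00360), and was not called with 24 (0.01 ± 0.21 and -0.46 ± 0.21).

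The list headed LXR and its partners moved little with the sort. Among its 6 genes were Nr1h2, which is LXR beta itself, the LXR partner Rxra, and Pparg, which is neither. None of the 6 was called between the sorts in either fit, with medians of -0.11 in young and -0.14 in old mice with 22 libraries (0.04 and -0.21 with 24). Of 10 tested LXR targets beside the members, none was called between the sorts with 24 libraries (4.99% of all genes in young and 4.30% in old mice). With 22 libraries 1 was called in young and 2 in old mice, against 12.0% and 11.6% of all genes, counts near those shares. With 22, Smpdl3a, a phosphodiesterase-like enzyme, was higher in young Siglec F-low cells (0.38 ± 0.09, edgeR adjusted p 0.00441), and Apoc1, a neighbour of Apoe in the cluster, was lower in old Siglec F-low cells (-1.36 ± 0.32, edgeR adjusted p 0.00574), as was Lpcat3 (-0.29 ± 0.08, edgeR adjusted p 0.0163). With 24 libraries these were at 0.43 ± 0.14 (Smpdl3a), -1.33 ± 0.42 (Apoc1) and -0.19 ± 0.16 (Lpcat3). Apoc1 was thus below Siglec F-high cells where Apoe was above them. Scd1, the stearoyl-CoA desaturase, was higher in old than in young naive cells (0.98 ± 0.23, edgeR adjusted p 0.0217), and by 0.99 ± 0.17 with 22 libraries (edgeR adjusted p 0.000640). It was the only 1 of the 10 called there with 24 libraries, against 2.03% of all genes. With 22 libraries 3 were higher, against 8.03%.

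A further list held 7 genes that free cholesterol from lysosomes and droplets or move it onward. Between the sorts 0 were called in young and 1 in old mice with 24 libraries (4.99% and 4.30% of all genes). With 22 libraries 3 were higher in young mice (12.0%), and 1 was higher and 1 lower in old mice (11.6%). Nceh1, a cholesteryl ester hydrolase, was lower in old Siglec F-low cells (-0.32 ± 0.09, edgeR adjusted p 0.0460), also with 22 libraries (-0.31 ± 0.06, edgeR adjusted p 0.00213). With 22 libraries Npc2 (0.50 ± 0.08, edgeR adjusted p 0.000294), Stard4 (0.52 ± 0.13, 0.00922) and Lipa (0.38 ± 0.11, 0.0252) were higher in young Siglec F-low cells, and Stard4 in old ones (0.44 ± 0.13, 0.0282). With 24 libraries the values in young mice were 0.33 ± 0.16 (Npc2), 0.25 ± 0.19 (Stard4) and 0.63 ± 0.22 (Lipa), and in old mice 0.34 ± 0.19 (Stard4), none called.

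The genes whose log2 CPM was most like that of Apoe over 24 libraries were C1qa (Pearson r 0.93), Scpep1 (0.92), B4galt6 (0.92), C1qb (0.92) and C1qc (0.91), of 13466 genes compared. C1qa, C1qb and C1qc make the complement component C1q and are also on the list of monocyte-derived macrophage markers. C1qa was at 38.1 ± 3.99 and 54.6 ± 7.61 CPM in young and old Siglec F-low cells and at 5.80 ± 1.40 and 3.47 ± 1.33 CPM in the asbestos Siglec F-high cells. Scpep1, a serine carboxypeptidase, was at 179 ± 8.80 and 181 ± 28.6 CPM against 106 to 121 CPM and 70.2 to 96.9 CPM in the asbestos Siglec F-high libraries. Over 22 libraries the 5 were others, Olfml3, Eef1a2, Cyp2j6, Htr2b and Gypc, with r from 0.93 to 0.94, and their group means were at most 3.53 CPM.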

How the data were processed

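Gene expression was measured by poly(A)-selected RNA-seq in 24 libraries, 4 in each of 6 groups named from the sample labels. The authors deposited 1 table of raw counts per Ensembl gene, whole numbers that were not scaled. Per the submitters' processing notes, bcl2fastq 2.19.1, FastQC, Trimmomatic 0.36, STAR 2.6.0 and HTSeq 0.11.2 were used with mm10. Of the annotation release and the use of strand, nothing is given in the sources used here. Symbols were matched for 42462 IDs, and positions and exonic lengths came from GENCODE M21. IDs without a symbol (968) were tested and not named.

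Genes kept by filterByExpr of edgeR (minimum count 10, minimum total 15) were 13467 with 24 libraries and 13629 with 22. Counts were scaled by TMM and fitted with edgeR 4.0.16 in R 4.3.3, quasi-likelihood, 1 term per group, with Benjamini-Hochberg adjustment over all genes of each of 7 comparisons and 2 interactions. Calls are those with an adjusted p under 0.05. The script was tested on simulated data. The median SE of a log2 difference was 0.236 to 0.243 with 24 libraries and 0.127 to 0.147 with 22. The alternatives used DESeq2 1.42.0, limma 3.58.1 voom with quality weights, other size factors, no filter, 2 groups alone, a replicate block and each library left out. The 10 genes, the gene lists, the 22-library fit and the tests were chosen with earlier results of these data known. Of each list at most 3 called genes of smallest p per comparison were named, and the 5 genes most correlated with Apoe (log2 CPM, prior count 2).
Some results are not reported here.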

Additional observations from a re-analysis of the deposited data

Results flagged for a closer look

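Each of the 10 genes was looked at in each of the 6 groups for 1 library far from the other 3 (Dixon's test for 4 libraries). Of 60 groups 7 held such a library, where chance gives about 1 in 20. The libraries that stood apart in depth accounted for 5 of them. Old asbestos Siglec F-high replicate 3 had 487.55 CPM of Abca1 where the other 3 had 189.58 to 218.84 CPM. It had 3449.6 CPM of Abcg1 against 2294.1 to 2329.1 CPM. Its Nr1h3 level was 33.483 CPM against 64.849 to 67.725 CPM. Young asbestos Siglec F-high replicate 3 had 39.545 CPM of Pltp against 207.54 to 223.65 CPM, and 465.07 CPM of Soat1 against 333.09 to 348.41 CPM. The other 2 cases were in libraries of ordinary depth. Apoe was at 240.34 CPM in old Siglec F-low replicate 1 against 334.93 to 350.59 CPM in the rest of that group, which still left it above all 16 Siglec F-high libraries. Scarb1 was at 187.61 CPM in young naive replicate 1 against 158.64 to 162.5 CPM.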

How the results depend on the processing

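Of 2970 alternative values of the 10 genes, 2832 kept their side of the threshold, 116 of these with a change of sign and no call under either setting. No called difference changed direction. What moved was the number of the 10 genes called, mostly with both outlying libraries left out or down-weighted. For old against young, naive Siglec F-high, 0 became 1 with 22 libraries, 4 with limma voom, 1 with 2 groups alone, 2 with a replicate block on 22 libraries and 3 with voom on 22. For old against young, asbestos Siglec F-high, 1 became 2 with voom, 0 with groups alone, and 2 with the block and with voom on 22 (1 to 2 with 1 library left out). For old against young, asbestos Siglec F-low, 0 became 4 with 22 libraries, 5 with voom, 3 with groups alone, and 5 with the block and with voom on 22 (0 to 3 with 1 library left out). For the asbestos comparison in young Siglec F-high cells 2 became 1 without the filter and with the block, 0 with groups alone, 3 with DESeq2 and with voom, and 4 with voom on 22 (1 to 2 with 1 library left out). For the asbestos comparison in old Siglec F-high cells 0 became 4 with 22 libraries, 5 with voom, and 4 with the block and with voom on 22 (0 to 1 with 1 library left out). Between the sorts of young mice 1 became 6 with 22 libraries, 8 with voom, 7 with the block on 22 and 8 with voom on 22 (1 to 5 with 1 library left out). Between those of old mice 4 became 3 without the filter, with groups alone and with the block, 5 with 22 libraries and with voom, 6 with the block on 22, and 2 to 5 with 1 library left out. For the age by sort interaction 0 became 1 with voom, and with the block and voom on 22. Apart from the plain edgeR fits with 24 and with 22 libraries, the share of all genes called is not given here. The counts under the other settings therefore cannot be read as results about the 10 genes. The causes were not tested. The block was no main choice, because same-numbered libraries correlated at 0.0733 to 0.186 (old sorts) and -0.180 to 0.245 (young sorts) over 24 libraries. With 22 the old sorts were at 0.161 to 0.216 and the young ones at 0.0877 to 0.329. The block and voom fits on 22 libraries were added after the data were seen. Apoc2 had 0 to 33 counts a library, the fewest of the 10.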
